A study of Rattus norvegicus with 8 samples.

Results

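The enzymes that add and remove acetyl and methyl groups on histones, with a few proteins that read those marks, were followed in primary rat nucleus pulposus (NP) cells after knockdown of Sirt6. Members were all genes named in the deposited comparison whose symbol begins with Hdac, Kdm, Kmt2, Kmt5, Setd, Prmt, Suv39h or Brd and a digit, the Kat genes Kat2a, Kat2b and Kat5 to Kat8, and Ep300, Crebbp, Hat1, Ezh1, Ezh2, Ehmt1, Ehmt2, Dot1l and Nsd1. This gave 74 rows with 73 different names, of 13543 gene rows in that comparison and 32883 gene rows counted. Each name had a row that passed the filter on low counts, so 73 members were tested among 13250 genes. Setdb2 had a second row that did not pass, with 3, 116, 36 and 14 reads in S1 to S4 and 2, 1, 1 and 6 reads in S5 to S8. Ep300, Kat2b, Kmt2c, Kmt2d and Brd2 had no row under those names and were not analysed here. Suv39h1 had no row under that name, but Suv39h1l1, its older symbol in RefSeq, was tested as a member.

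NP cells are those of the soft centre of the intervertebral disc, taken here from adult Sprague Dawley rats. They received lentiviral particles with a mixture of short hairpin RNAs against Sirt6 (Sirt6-KD, libraries S5 to S8) or a control hairpin (Sirt6-Ctrl, libraries S1 to S4), with 4 libraries per group. All cells were thus transduced, and all were grown in DMEM with serum and antibiotics. The methods describe puromycin selection after transduction, and the series text speaks of 4 rats and their respective controls without saying which library came from which, so a pairing of libraries by rat was not used. RNA was that of the whole culture, in which fewer cells of a kind and less RNA per cell cannot be told apart.

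A histone lysine can carry an acetyl group or up to a trimethyl mark, and each mark has its own writers, erasers and readers. SIRT6 is itself a histone deacetylase that removes acetyl groups from histone H3, including lysine 9. Methylation at H3K4 and H3K36 is found at active genes. Methylation at H3K27, set by Polycomb repressive complex 2 (PRC2), and at H3K9 is found at silenced ones. Some of the enzymes act within multiprotein complexes.

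The libraries held 31994838 to 40124813 reads, and 3 reads corresponded to 0.0727 to 0.0928 normalized counts per 1e6 reads (CPM). Sirt6 was at 56.4, 54.3, 52.5 and 47.6 CPM in S1 to S4 and at 21.8, 20.97, 19.2 and 20.6 CPM in S5 to S8, so its level matched the labels in every library. The Sirt6-Ctrl libraries were less alike, with pairwise correlations of log2 CPM across genes of 0.922 to 0.962 against 0.981 to 0.986 in Sirt6-KD. Synthetic ERCC spike-in RNA took 6.27% of the reads in S1 and 9.80% in S2, against 2.15% to 3.08% in the other libraries. Genes with a long genomic span were lower, relative to short ones, in S1 and S2 than in any other library. The NP markers with a row were all expressed, at a summed level of 164 to 248 CPM for Sirt6-Ctrl and 136 to 150 CPM in Sirt6-KD, and 2 of 7 were called lower (Krt8 and Car3). Brachyury, Krt18, Krt19, Shh and Col2a1 had no row under the names searched and were not analysed here. Of 4 endothelial markers only Tek had a row, at 0 to 0.51 CPM for Sirt6-Ctrl and 0.18 to 0.59 CPM in Sirt6-KD. Immune cell markers with a row (Cd68 and Csf1r) summed to 1.48 to 3.28 CPM for Sirt6-Ctrl and 2.76 to 5.17 CPM in Sirt6-KD. Of 5 fibroblast markers, edgeR called 0 (1 lower at an unadjusted p under 0.05, and 1 lower with DESeq2 or limma-voom), and their sum of 13645 to 25841 CPM against 8322 to 17832 CPM was almost all Col1a1. The proliferation list had 2 of 10 genes called higher (Mki67 and Mcm2), with summed levels of 143 to 239 CPM for Sirt6-Ctrl and 284 to 299.98 CPM in Sirt6-KD. Its median log2 fold change, Sirt6-KD against Sirt6-Ctrl, was 0.92, while that of Pcna, the gene at the highest level, was -0.03. Ezh2 is known to be higher in dividing cells, and the part of proliferation in the changes below was not tested.

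In Sirt6-KD cells, 10 members were called higher and 3 lower, at an edgeR adjusted p below 0.05 over all rows tested and a fold change above 1.5. The members called higher were Kmt2a, Kdm7a, Kat6a, Dot1l, Nsd1, Kdm3a, Ezh2, Kdm4c, Kmt5b and Kmt5a, and those called lower were Setd4, Kdm5a and Kdm1a. That was 13.7% higher and 4.11% lower, against 8.02% called higher and 10.7% called lower among all genes tested. The log2 fold change (log2 FC, Sirt6-KD against Sirt6-Ctrl, given below with its standard error, SE) was positive for 49 of the 73 members (67.1%), against 49.14% of all genes, and its median was 0.20 against -0.02. Every Sirt6-KD library lay above every Sirt6-Ctrl library for 19 members and below for 7, or 26.0% and 9.59% of them, beside 14.8% and 15.6% of all genes. Lysine methyltransferases had 6 of 20 called higher and 0 lower, while Ezh1 was lower at an adjusted p below 0.05 with a fold under 1.5. With DESeq2, 6 of these 20 were called higher and 1 lower. The 4 other SET domain proteins were grouped apart from these 20, and edgeR called 0 of them higher and 1 lower (Setd4). Demethylases had 3 of 17 called higher and 2 lower, and acetyltransferases 1 of 8 higher. EdgeR, DESeq2 and limma-voom each called 0 of the 11 deacetylases, 0 of the 6 arginine methyltransferases and 0 of the 6 readers. At an unadjusted p under 0.05 in edgeR these were 2 deacetylases higher, 3 arginine methyltransferases higher and 3 readers lower. With no minimum fold, 14 members were higher and 5 lower at an edgeR adjusted p below 0.05. The matching shares of all genes with DESeq2, with limma-voom, with no minimum fold and at an unadjusted p are not given here. Every called member and a chosen list of others are named below. The 34 other members tested, which include the arginine methyltransferases, had log2 fold changes from -0.60 to 1.16. EdgeR called 0 of those 34 by construction, since every member it called is named. DESeq2 also called 0, but Kmt5c, which it called lower, was named after its values were seen. Limma-voom called 1 higher. At an unadjusted edgeR p under 0.05, 5 of the 34 were higher and 3 lower.

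**Figure D1:**
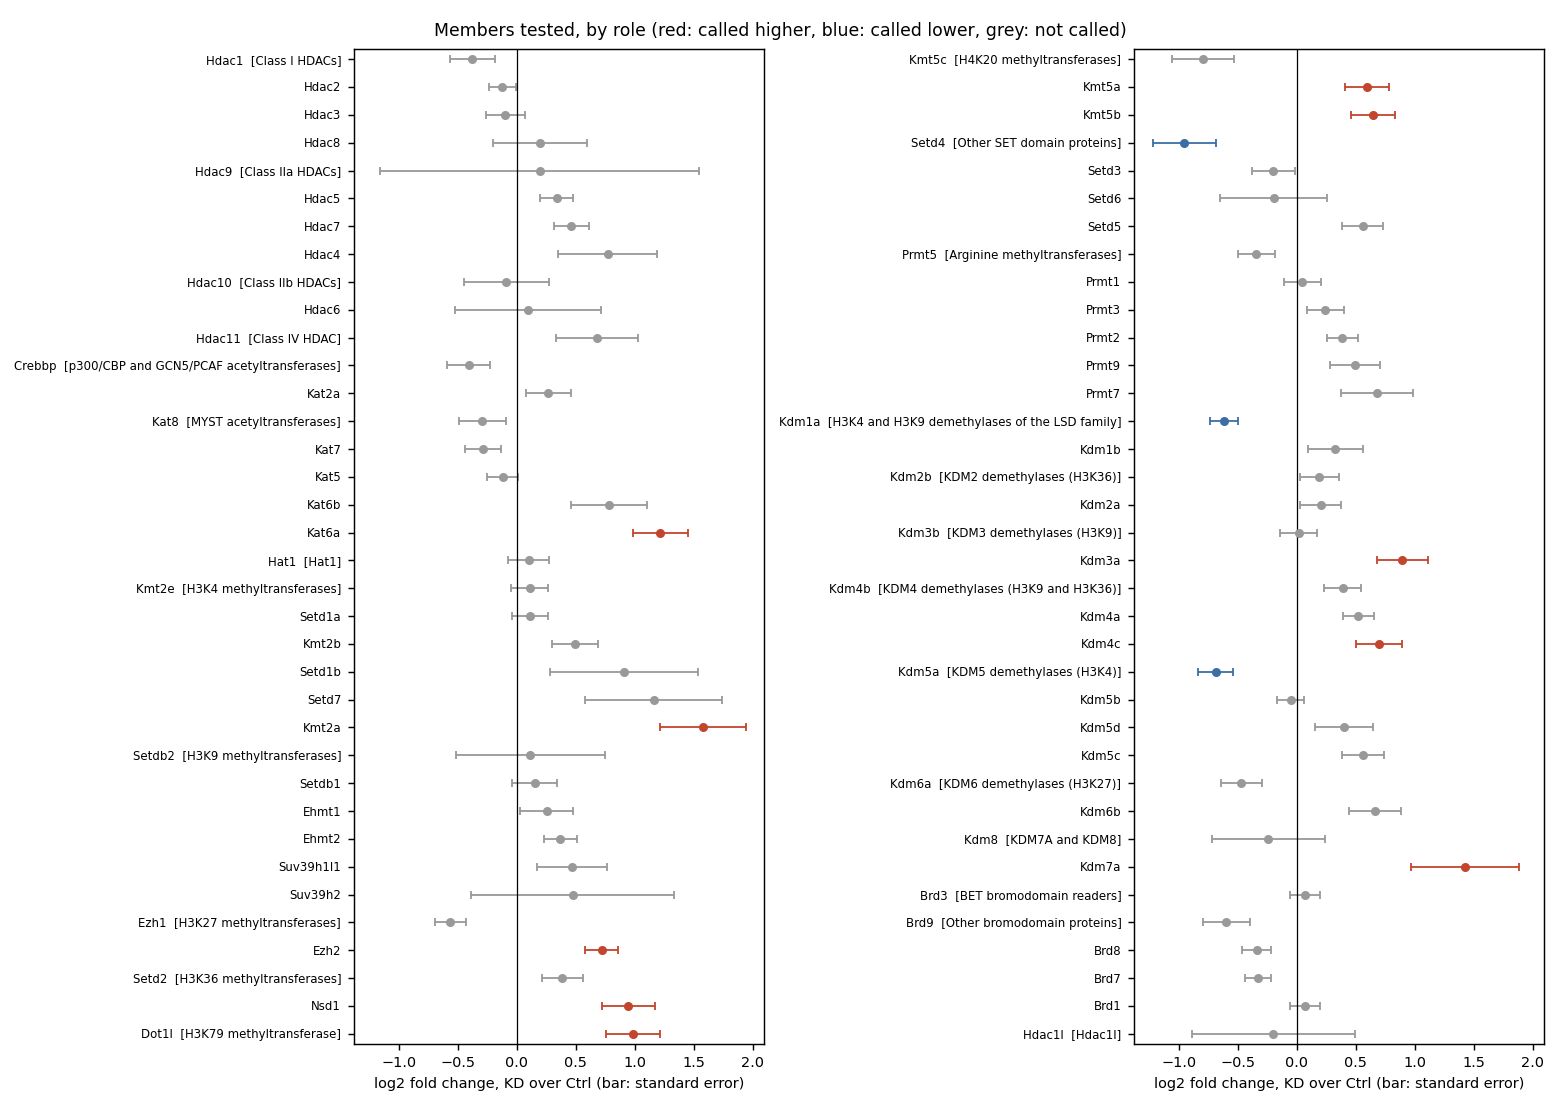
Log2 FC (Sirt6-KD against Sirt6-Ctrl) with its SE for 72 of the 73 members tested, grouped by role, with the first gene of each role carrying the role's name in brackets. Red marks the 10 members called higher, blue the 3 called lower, and grey those not called; the H3K4, H3K9 and H3K36 methyltransferases all lie right of 0.

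The H3K27 methyltransferases moved apart. Ezh2 (ENSRNOG00000006048), the catalytic subunit of PRC2 in dividing cells, was at 20.6, 19.1, 21.1 and 20.4 CPM in S1 to S4 and at 33.1, 32.3, 36.5 and 31.6 CPM in S5 to S8. The Sirt6-Ctrl libraries lay close together and every Sirt6-KD library was above them. Ezh2 rose with a log2 FC of 0.72 (SE 0.14, edgeR adjusted p = 0.00887), or 1.65-fold. Ezh1 (ENSRNOG00000020336), the alternative catalytic subunit, was at 83.7, 76.4, 76.5 and 65.4 CPM in S1 to S4 and at 47.03, 56.7, 52.6 and 48.2 CPM in S5 to S8. Its groups did not overlap either, in the opposite direction, with a log2 FC of -0.56 (SE 0.13, edgeR adjusted p = 0.0154), which passed the p threshold and not the fold. Within each library the log2 ratio of Ezh2 to Ezh1, which does not depend on how libraries are scaled, was -2.02, -2.001, -1.86 and -1.68 in S1 to S4 and -0.505, -0.81, -0.53 and -0.61 in S5 to S8. This ratio was 1.28 higher in Sirt6-KD on the log2 scale (two-sided exact permutation, p = 0.0286, which is the lower limit with 4 against 4, and 0.0515 after adjustment over 9 pairs of paralogues), and 1.16 higher without S1 and S2.

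The other PRC2 subunits did not move as a block. Of 9 listed and tested, Suz12 and Aebp2 were called higher and Eed lower, and the median log2 fold change was -0.01. Suz12, a core subunit, was at 18.8, 25.3, 36.8 and 26.4 CPM in S1 to S4 and 51.1, 52.1, 50.2 and 44.6 CPM in S5 to S8, a log2 FC of 0.88 (SE 0.198, edgeR adjusted p = 0.0135). Eed, the core subunit that binds trimethylated H3K27, fell from 46.1 ± 7.13 to 30.03 ± 2.52 CPM (mean ± SD, n = 4), a log2 FC of -0.62 (SE 0.16, edgeR adjusted p = 0.0203). Aebp2, an accessory subunit, rose by 0.63 on the log2 scale (edgeR adjusted p = 0.0348). Suz12 and Ezh2 were thus higher and Eed lower in the same libraries, with no overlap of the groups for any of them.

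The H3K27 demethylases also differed in sign. Kdm6b, the inducible enzyme, was at 28.9, 23.97, 48.1 and 44.9 CPM in S1 to S4 and 62.9, 49.5, 60.3 and 58.2 CPM in S5 to S8, all above the Sirt6-Ctrl libraries, yet was not called, with a log2 FC of 0.66 (SE 0.22, edgeR adjusted p = 0.0571). Kdm6a, its X-linked paralogue, was at 23.9, 30.2, 25.3 and 23.03 CPM in S1 to S4 and 16.2, 21.3, 19.7 and 16.7 CPM in S5 to S8, all below, with a log2 FC of -0.47 (SE 0.18, edgeR adjusted p = 0.078). The log2 ratio of Kdm6b to Kdm6a was 0.28, -0.34, 0.93 and 0.96 in S1 to S4 and 1.95, 1.21, 1.62 and 1.804 in S5 to S8. The difference was 1.19 (two-sided exact permutation test, p = 0.0286, adjusted 0.0515), and 0.703 without S1 and S2. S4 and S3 had the highest ratios of the Sirt6-Ctrl group, and both still lay below S6, the lowest Sirt6-KD library.

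For 4 members the promoter is shown as reference sequence, namely the called members with the smallest adjusted p in each direction among the 9 that have a single RefSeq start (Ezh2 and Nsd1 higher, Kdm1a and Kdm5a lower). Each line gives the 250 bases before the start in the GRCr8 assembly, 5′ to 3′ on the gene's strand, with the letters CCAAT or their reverse complement ATTGG in capitals. The starts are annotated ones and were not measured here.
Ezh2 promoter, chr4:77687184-77687433, minus strand: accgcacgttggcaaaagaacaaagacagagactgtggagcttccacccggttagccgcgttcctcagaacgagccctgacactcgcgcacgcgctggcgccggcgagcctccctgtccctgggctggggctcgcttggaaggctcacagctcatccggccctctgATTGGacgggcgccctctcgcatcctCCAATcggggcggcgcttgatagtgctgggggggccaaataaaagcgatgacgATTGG
Nsd1 promoter, chr17:9429522-9429771, minus strand: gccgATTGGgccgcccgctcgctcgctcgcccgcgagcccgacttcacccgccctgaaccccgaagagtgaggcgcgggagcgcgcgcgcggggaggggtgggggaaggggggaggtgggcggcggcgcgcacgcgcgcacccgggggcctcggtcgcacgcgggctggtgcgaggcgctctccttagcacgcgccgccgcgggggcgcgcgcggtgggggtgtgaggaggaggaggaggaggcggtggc
Kdm1a promoter, chr5:154121776-154122025, minus strand: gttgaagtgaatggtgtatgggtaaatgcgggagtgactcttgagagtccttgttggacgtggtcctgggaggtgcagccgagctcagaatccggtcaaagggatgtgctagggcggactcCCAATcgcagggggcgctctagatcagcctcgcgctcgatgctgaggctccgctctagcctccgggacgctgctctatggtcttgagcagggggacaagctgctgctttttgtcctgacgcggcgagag
Kdm5a promoter, chr4:155237874-155238123, plus strand: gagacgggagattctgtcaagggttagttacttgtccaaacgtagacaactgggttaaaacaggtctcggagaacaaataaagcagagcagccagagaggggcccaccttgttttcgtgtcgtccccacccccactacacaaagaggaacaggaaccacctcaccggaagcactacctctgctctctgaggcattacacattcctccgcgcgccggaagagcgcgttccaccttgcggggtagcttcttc
The Ezh2 window held 3 such boxes, beginning 84, 58 and 5 bases before the start. At least 3 boxes were present in 2.85% of the 24206 windows of this length from all genes with a single start, and at least 1 in 34.4%. Among the members with a single start, 4 of 6 called higher and 2 of 3 called lower held a box. The letters GGGCGG or CCGCCC, which do not overlap that box, were in 6 of 6 called higher and 1 of 3 called lower, against 33.6% of all windows. The windows of all genes include genes not tested here, and no share is given for tested genes or uncalled members. These matches are a description of letters in a window and no test was made of them. Kmt2a and Kat6a had no start in the table used.

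At H3K4, 1 methyltransferase was called higher and 2 demethylases lower, while other demethylases had positive log2 fold changes. Kmt2a (ENSRNOG00000015133), which encodes the methyltransferase MLL1, was at 11.6, 9.65, 35.8 and 22.8 CPM in S1 to S4 and at 53.2, 61.2, 63.6 and 60.7 CPM in S5 to S8. Every Sirt6-KD library was above every Sirt6-Ctrl library, of which S1 and S2 were the lowest. The log2 FC was 1.58 (SE 0.36, edgeR adjusted p = 0.0144), or 2.99-fold, the largest among the members called. Its closest relative Kmt2b was at 41.8, 24.4, 44.7 and 41.7 CPM in S1 to S4 and 58.5, 49.6, 58.03 and 48.2 CPM in S5 to S8, with no overlap, and was not called (log2 FC 0.49 (SE 0.195, edgeR adjusted p = 0.0963)). The log2 ratio of Kmt2a to Kmt2b was -1.85, -1.34, -0.32 and -0.87 in S1 to S4 and -0.14, 0.304, 0.13 and 0.33 in S5 to S8, a difference of 1.25 (two-sided exact permutation test, p = 0.0286, adjusted 0.0515) that was 0.75 without S1 and S2. All 6 members grouped as H3K4 methyltransferases had positive log2 fold changes, with a median of 0.70, and Kmt2a alone was called. Their range was 0.11 to 1.58 with all libraries, and 0.096 to 1.04 without S1 and S2. The largest value of those not called was 1.16 with all libraries, and that member was at 0.54 without S1 and S2. The COMPASS complexes hold some of these enzymes. Of the 9 COMPASS partners listed, edgeR, DESeq2 and limma-voom each called 0 (3 were lower at an unadjusted edgeR p under 0.05). Their log2 fold changes ran from -0.39 to 0.48.

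Kdm5a (ENSRNOG00000010591), a demethylase of trimethylated H3K4, was at 134, 172, 114 and 128 CPM in S1 to S4 and at 81.1, 85.00, 95.96 and 77.6 CPM in S5 to S8. Every Sirt6-KD library was below every Sirt6-Ctrl library, of which S2 was the highest. It fell with a log2 FC of -0.69 (SE 0.15, edgeR adjusted p = 0.0115). Kdm5b, its paralogue, was at 132 ± 8.12 CPM with the control hairpin and 128 ± 10.3 CPM after knockdown (mean ± SD, n = 4) and was not called (edgeR adjusted p = 0.777). The log2 ratio of Kdm5a to Kdm5b was -0.02, 0.34, -0.28 and 0.09 in S1 to S4 and -0.53, -0.63, -0.55 and -0.65 in S5 to S8, a difference of -0.62 (two-sided exact permutation test, p = 0.0286, adjusted 0.0515) and -0.497 without S1 and S2. Kdm5c, the X-linked paralogue, was at 73.6, 45.2, 84.5 and 70.00 CPM in S1 to S4 and 97.9, 97.4, 107 and 99.96 CPM in S5 to S8. Its groups did not overlap, in the direction opposite to Kdm5a, and the log2 FC of 0.56 (SE 0.18, edgeR adjusted p = 0.0465) passed the p threshold and not the fold. Kdm5d was at 10.03, 10.5, 18.2 and 18.1 CPM in S1 to S4 and 16.9, 17.98, 19.6 and 20.2 CPM in S5 to S8, with overlap (log2 FC 0.396 (SE 0.25, edgeR adjusted p = 0.276)), so 2 of the 4 KDM5 enzymes were positive and 2 negative.

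Kdm1a (ENSRNOG00000022372) encodes LSD1, which removes mono- and dimethyl groups from H3K4 and works with CoREST. It was at 97.8, 95.3, 86.04 and 79.5 CPM in S1 to S4 and at 54.6, 58.1, 62.2 and 58.9 CPM in S5 to S8. The lowest Sirt6-Ctrl library, S4, was still above the highest Sirt6-KD library, S7, and the log2 FC was -0.62 (SE 0.12, edgeR adjusted p = 0.00848). Its paralogue Kdm1b was at 10.8 ± 2.01 and 13.5 ± 2.41 CPM (log2 FC 0.32 (SE 0.23, edgeR adjusted p = 0.347)). Of 9 proteins of the CoREST and NCoR corepressor complexes, 7 had positive log2 fold changes and 2 were called higher. These were Zmym2, at 56.7 ± 12.7 against 88.3 ± 8.399 CPM (log2 FC 0.64 (SE 0.17, edgeR adjusted p = 0.0221)), and Tbl1xr1, an NCoR subunit, at 50.1 ± 12.7 against 88.3 ± 9.09 CPM (log2 FC 0.82 (SE 0.19, edgeR adjusted p = 0.014)).

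**Figure D2:**
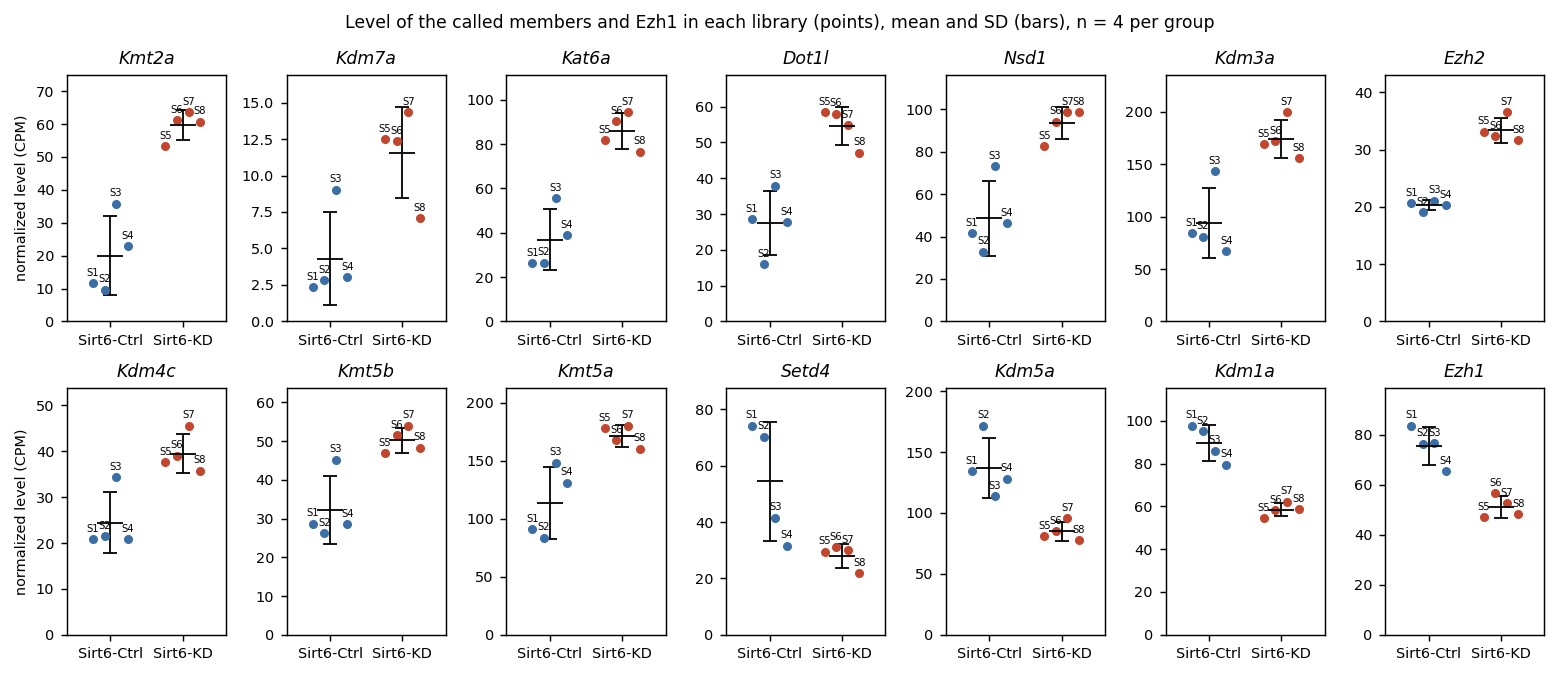
Normalized level in CPM of the 13 called members and Ezh1, on linear axes from 0, with a labelled point per library and the mean and SD of each group (n = 4). S3 is the highest Sirt6-Ctrl library for all 10 members called higher, and the groups overlap only for Kdm7a, where S3 (9.04 CPM) lies above S8 (7.07 CPM).

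At H3K36, H3K79 and H4K20 the methyltransferases called were all higher, while Kmt5c, not called by edgeR, was lower. Nsd1 (ENSRNOG00000016680), which dimethylates H3K36, was at 41.5, 32.9, 73.3 and 46.2 CPM in S1 to S4 and 82.7, 94.1, 98.5 and 98.5 CPM in S5 to S8, without overlap, a log2 FC of 0.95 (SE 0.22, edgeR adjusted p = 0.0158). Setd2, which sets trimethylated H3K36, was at 92.4, 95.5, 155 and 101 CPM in S1 to S4 and 135, 147, 159.6 and 138 CPM in S5 to S8. S3 lay within the Sirt6-KD range for Setd2, which was not called (log2 FC 0.39 (SE 0.17, edgeR adjusted p = 0.133)). Among 9 further histone methyltransferases of the partner list, the H3K36 enzymes Nsd3 and Ash1l were called higher. Nsd3 was at 44.2, 39.5, 65.03 and 45.1 CPM in S1 to S4 and 89.7, 70.97, 89.5 and 83.8 CPM in S5 to S8, with a log2 FC of 0.78 (SE 0.17, edgeR adjusted p = 0.0127). Ash1l went from 76.3 ± 22.1 to 139 ± 14.6 CPM (log2 FC 0.87 (SE 0.201, edgeR adjusted p = 0.0151)). Nsd1, Nsd3 and Ash1l, which all act on H3K36, were each higher in every Sirt6-KD library than in any Sirt6-Ctrl library. Nsd2, another H3K36 enzyme of that list, was at 66.2 ± 5.31 against 65.1 ± 1.598 CPM and was not called (log2 FC -0.02 (SE 0.12, edgeR adjusted p = 0.914)).

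Dot1l (ENSRNOG00000032546), the only known H3K79 methyltransferase, was at 28.5, 16.1, 37.9 and 27.7 CPM in S1 to S4 and 58.5, 58.1, 54.8 and 47.2 CPM in S5 to S8. The groups did not overlap, and its log2 FC was 0.99 (SE 0.23, edgeR adjusted p = 0.0159), or 1.98-fold. Kmt5a (ENSRNOG00000001062), which monomethylates H4K20, was at 91.1, 83.8, 148 and 131 CPM in S1 to S4 and 178, 167, 180.3 and 160.3 CPM in S5 to S8. Kmt5b (ENSRNOG00000016790), which adds further methyl groups to H4K20, was at 28.7, 26.2, 45.2 and 28.5 CPM in S1 to S4 and 46.9, 51.6, 54.04 and 48.3 CPM in S5 to S8. For both, S3 came close to the Sirt6-KD libraries, and their log2 FC values were 0.59 (SE 0.18, edgeR adjusted p = 0.0418) for Kmt5a, at a fold of 1.51 just over the threshold, and 0.64 (SE 0.19, edgeR adjusted p = 0.0343) for Kmt5b. Kmt5c, which like Kmt5b acts on H4K20 that is already monomethylated, was at 20.8, 19.9, 16.6 and 10.6 CPM in S1 to S4 and 8.31, 10.6, 12.1 and 8.14 CPM in S5 to S8. S4 lay below S7, so the groups overlapped, and the log2 FC was -0.797 (SE 0.26, edgeR adjusted p = 0.0538). Kmt5c was called lower with DESeq2 (adjusted p = 0.025), with at least 1 CPM in 4 libraries and in edgeR without S4.

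The H3K36 demethylases Kdm2a and Kdm2b were not called, with log2 fold changes of 0.1997 and 0.19, and their ratio differed by 0.03 (two-sided exact permutation test, p = 0.771, adjusted 0.867). The KDM4 enzymes, which act on H3K9 and H3K36, were all positive. Kdm4c (ENSRNOG00000006644) was at 20.9, 21.5, 34.4 and 20.9 CPM in S1 to S4 and 37.6, 39.1, 45.6 and 35.8 CPM in S5 to S8, with S3 just below S8, and rose with a log2 FC of 0.69 (SE 0.198, edgeR adjusted p = 0.0313). Kdm4a was at 99.6, 94.1, 101 and 75.7 CPM in S1 to S4 and 145, 137, 133 and 118 CPM in S5 to S8. Its groups did not overlap and its log2 FC of 0.52 (SE 0.13, edgeR adjusted p = 0.021) passed the p threshold and not the fold.

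At H3K9, edgeR, DESeq2 and limma-voom each called 0 of the 6 methyltransferases tested, and 1 was higher at an unadjusted edgeR p under 0.05. All 6 had positive log2 fold changes, with a median of 0.31. Setdb1 was at 36.5, 34.02, 59.7 and 39.8 CPM in S1 to S4 and 49.5, 46.1, 52.3 and 41.2 CPM in S5 to S8, with S3 above every Sirt6-KD library. Ehmt1 and Ehmt2, partners in the G9a and GLP heterodimer, had log2 fold changes of 0.25 and 0.37 (edgeR adjusted p = 0.452 and 0.0859), and their ratio differed by -0.07 (two-sided exact permutation test, p = 0.886). Suv39h2 was at 2.098, 0.0619, 3.83 and 1.07 CPM in S1 to S4 and 2.92, 2.54, 1.43 and 2.900 CPM in S5 to S8, with S2 below the level of 3 reads, and its log2 fold change of 0.47 had a standard error of 0.86.

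Erasers of H3K9 were among the members called. Kdm3a (ENSRNOG00000007814), a demethylase of mono- and dimethylated H3K9 known as a target of hypoxia-inducible factor, was at 84.5, 80.9, 143 and 66.97 CPM in S1 to S4 and 169.5, 172, 199.7 and 156 CPM in S5 to S8, a log2 FC of 0.89 (SE 0.22, edgeR adjusted p = 0.0183). Kdm7a (ENSRNOG00000052445), which removes dimethyl groups from H3K9 and H3K27, was at 2.36, 2.81, 9.04 and 3.03 CPM in S1 to S4 and 12.5, 12.4, 14.3 and 7.07 CPM in S5 to S8. S3 lay above S8, so the groups overlapped, and the log2 FC was 1.42 (SE 0.46, edgeR adjusted p = 0.0489), close to the threshold. Phf8, a related demethylase from the list of 6 other JmjC proteins, fell from 28.8 ± 2.53 to 18.3 ± 5.04 CPM (log2 FC -0.66 (SE 0.21, edgeR adjusted p = 0.0485)), a call that held in 1 of the 8 fits with a library left out.

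Among acetyltransferases, Kat6a (ENSRNOG00000025174), also named MOZ, was the member called. It was at 26.5, 26.5, 55.6 and 39.00 CPM in S1 to S4 and at 81.9, 90.5, 94.4 and 76.7 CPM in S5 to S8. The lowest Sirt6-KD library, S8, was well above the highest Sirt6-Ctrl library, S3, and Kat6a rose 2.33-fold, a log2 FC of 1.22 (SE 0.23, edgeR adjusted p = 0.00788). Its paralogue Kat6b (MORF) was at 10.03, 9.37, 26.5 and 12.9 CPM in S1 to S4 and 21.7, 25.6, 29.3 and 24.5 CPM in S5 to S8. S3 fell within the Sirt6-KD range, and Kat6b was not called (log2 FC 0.78 (SE 0.32, edgeR adjusted p = 0.104)). The log2 ratio of Kat6a to Kat6b was 1.399, 1.5003, 1.07 and 1.598 in S1 to S4 and 1.92, 1.82, 1.69 and 1.64 in S5 to S8, a difference of 0.38 (two-sided exact permutation test, p = 0.0286, adjusted 0.0515) and 0.43 without S1 and S2.

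The largest change of the partner list was in its group for the MOZ/MORF and HBO1 complexes, which are not separated here. Brpf3, one of several scaffold subunits, was at 15.3, 12.6, 42.5 and 18.3 CPM in S1 to S4 and 92.5, 87.4, 91.6 and 71.7 CPM in S5 to S8. Its log2 FC was 1.95 (SE 0.34, edgeR adjusted p = 0.00584), or 3.87-fold. Jade1, another scaffold of the HBO1 complex, was at 25.1, 24.9, 25.9 and 26.3 CPM in S1 to S4 and 36.3, 43.04, 39.9 and 39.4 CPM in S5 to S8, with the Sirt6-Ctrl libraries nearly equal, and had a log2 FC of 0.63 (SE 0.13, edgeR adjusted p = 0.0109). Ing4, a subunit that binds trimethylated H3K4, fell from 68.9 ± 18.9 to 39.9 ± 4.32 CPM (log2 FC -0.79 (SE 0.198, edgeR adjusted p = 0.0201)). Of the 8 partners of this group tested, 2 were thus called higher and 1 lower, 6 were positive, and the median log2 fold change was 0.57.

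Other acetyltransferases were not called. Crebbp, a broad coactivator that acetylates H3K18 and H3K27, was at 69.6, 83.1, 50.3 and 50.5 CPM in S1 to S4 and 47.5, 50.7, 50.6 and 42.1 CPM in S5 to S8, where S3 and S4 were level with Sirt6-KD (log2 FC -0.41 (SE 0.18, edgeR adjusted p = 0.131)). Kat2a (GCN5), which acetylates H3K9, was at 52.9, 47.7, 48.9 and 29.2 CPM in S1 to S4 and 56.7, 55.3, 57.4 and 45.6 CPM in S5 to S8, with overlap (edgeR adjusted p = 0.342). Of 11 SAGA and ATAC partners of Kat2a, Taf5l was called higher (log2 fold change 0.66, edgeR adjusted p = 0.0474) and 0 lower. In the TIP60 complex of Kat5, Dmap1 fell from 43.3 ± 18.03 to 20.5 ± 2.49 CPM, a log2 FC of -1.08 (SE 0.27, edgeR adjusted p = 0.02), and the other 7 subunits tested were not called. Mcrs1, of the NSL complex of Kat8, fell with a log2 fold change of -0.62 (edgeR adjusted p = 0.0291), with S6 just above S3.

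Of the 11 histone deacetylases tested, Hdac7 alone passed the p threshold, and its fold was under 1.5. Hdac7, a class IIa enzyme, was at 23.8, 28.5, 33.8 and 27.2 CPM in S1 to S4 and 39.5, 38.7, 37.2 and 40.7 CPM in S5 to S8, without overlap, a log2 FC of 0.46 (SE 0.15, edgeR adjusted p = 0.0499). Hdac1 was at 128, 101, 79.9 and 125 CPM in S1 to S4 and 71.1, 69.2, 87.4 and 106 CPM in S5 to S8, and S8 was higher than S3 and S2 (edgeR adjusted p = 0.177). Hdac2 was at 103 ± 5.55 CPM with the control hairpin and 94.9 ± 6.73 CPM after knockdown, and Hdac3 at 61.7 ± 14.7 and 57.7 ± 3.18 CPM (mean ± SD, n = 4). The log2 fold changes of Hdac2 and Hdac3 were -0.12 and -0.098, smaller than their standard errors of 0.11 and 0.17 or close to them. Hdac4 and Hdac5, class IIa enzymes that shuttle between nucleus and cytoplasm, had log2 fold changes of 0.77 and 0.34 (edgeR adjusted p = 0.215 and 0.105). S2 was far lower than every other library for Hdac4. The ratio of Hdac1 to Hdac2 differed by -0.25 and that of Hdac4 to Hdac5 by 0.69 (two-sided exact permutation tests, p = 0.286 and 0.400), neither beyond the spread between libraries. Without S2 the difference of Hdac4 to Hdac5 was 0.076. Hdac1 and Hdac1l, Kdm5c and Kdm5d, and the 2 rows of Setdb2 may share reads, and their levels are uncertain to that degree.

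The complexes that carry Hdac1 and Hdac2 did change in part. Suds3, a SIN3 subunit, was at 90.97, 117, 66.5 and 83.4 CPM in S1 to S4 and 52.8, 47.9, 46.6 and 42.6 CPM in S5 to S8, with no overlap and a log2 FC of -0.91 (SE 0.17, edgeR adjusted p = 0.00778). It was the one of 8 SIN3 proteins called, and 6 of the 8 had negative log2 fold changes, with a median of -0.36. In the NuRD complex, Chd3, a chromatin remodeler, was at 129, 127, 191 and 201 CPM in S1 to S4 and 249.8, 260.1, 264 and 269.9 CPM in S5 to S8 (log2 FC 0.69 (SE 0.17, edgeR adjusted p = 0.019)), and Mta1 rose by 0.62 on the log2 scale (edgeR adjusted p = 0.0268). The other 7 NuRD proteins tested were not called. Over all 93 partners tested, 11 were called higher and 6 lower, or 11.8% and 6.45% beside 8.02% and 10.7% of all genes, and the median log2 fold change was 0.07.

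Among the remaining members, Setd4 (ENSRNOG00000001699), a SET domain protein, was at 74.3, 70.3, 41.6 and 31.7 CPM in S1 to S4 and 29.5, 31.1, 29.9 and 21.8 CPM in S5 to S8. S1 and S2 were far above S3, while S4 was close to S6, and the log2 FC was -0.96 (SE 0.27, edgeR adjusted p = 0.0298). The 6 bromodomain readers, which bind acetylated histones, had 2 positive and 4 negative log2 fold changes, from -0.60 to 0.07, and a median of -0.21. The 6 arginine methyltransferases ranged from -0.35 to 0.68.

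**Figure D3:**
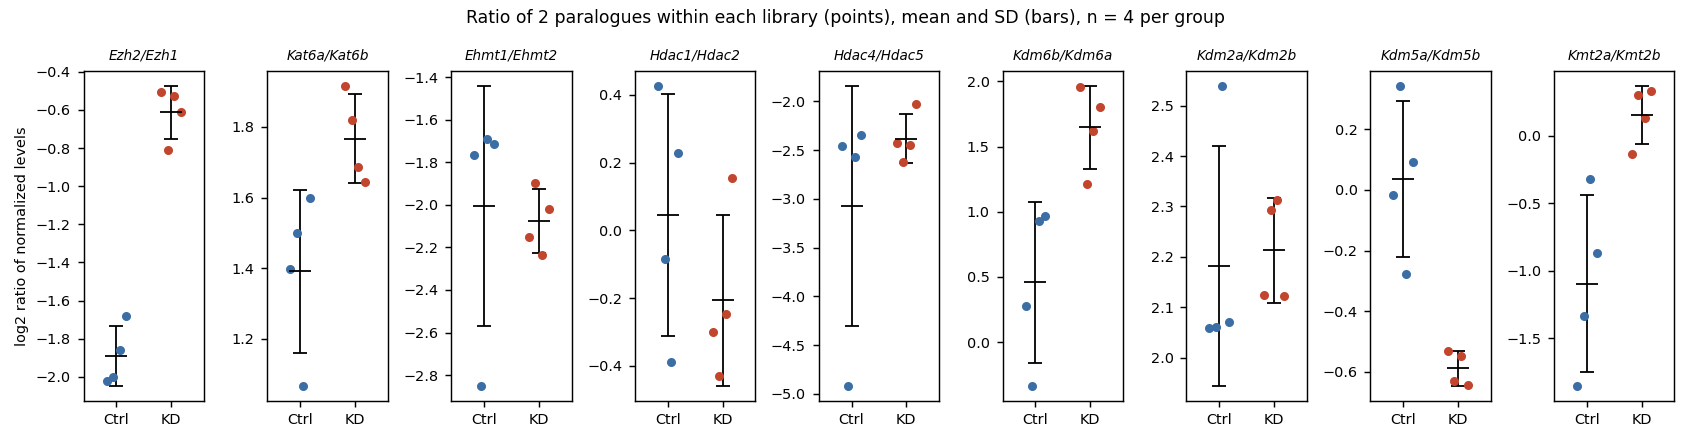
Log2 ratio of the normalized levels of 2 paralogues in each library, with the mean and SD of each group (n = 4), for the 9 pairs with both genes tested under the names listed. The groups do not overlap for Ezh2/Ezh1, Kat6a/Kat6b, Kdm6b/Kdm6a, Kdm5a/Kdm5b and Kmt2a/Kmt2b, and overlap for the other 4 pairs.

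Of 14 pairs of paralogues listed, 9 had both genes tested under the names listed. Their ratios cancel the scaling of each library but not a dependence on gene length. The difference was largest for Ezh2 to Ezh1, Kmt2a to Kmt2b and Kdm6b to Kdm6a, at 1.28, 1.25 and 1.19 on the log2 scale. Without S1 and S2, the last 2 were 0.75 and 0.703, over 1.5 times smaller, while Ezh2 to Ezh1 was 1.16. All 5 pairs whose groups did not overlap had the smallest p the design allows, 0.0286, and an adjusted p of 0.0515, above 0.05.

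The calls were not equally stable when single libraries were left out. Ezh2, Kat6a and Kmt2a were called in all 8 edgeR fits that leave out 1 library, with log2 fold changes of 0.67 to 0.78, 1.102 to 1.48 and 1.36 to 2.02. Nsd1 lost its call without S1, Kdm5a without S2, and Dot1l without S5 or S6. Kdm3a lost it without S1, S6 or S7, and Kdm1a without S1, S2 or S8. Setd4, Kdm4c and Kmt5a were each called in 2 of the 8 fits, and Kdm7a and Kmt5b in 1, the fit without S3. Kdm4c held without S2 or S3, and Setd4 and Kmt5a without S3 or S4. Among partners, Brpf3, Suz12, Nsd3 and Suds3 were called in all 8 fits, and Jade1 and Tbl1xr1 in all but the one without S6. Ash1l was called in 6 of the 8, Dmap1 in 5 and Chd3 in 4. Ing4, Aebp2, Mta1 and Zmym2 were called in 3, Eed in 2 (without S3 or S4), and Phf8, Mcrs1 and Taf5l in 1 (without S7 for Phf8 and without S3 for the others).

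S3 was the highest Sirt6-Ctrl library for 10 of the 10 members called higher, as for 73.5% of all genes called higher. S2 was the lowest for 6 of the 10, against 39.7% of all genes called higher. Without S1 and S2, edgeR called 5 of 74 member rows tested higher and 0 lower, beside 5.71% and 5.00% of all genes. Of the 10 members called higher with all libraries, Kmt2a, Kat6a, Dot1l and Ezh2 remained, and Kdm4a was added. Their log2 fold changes were then 1.04, 0.87, 0.74 and 0.698, in the order named. Setd4 moved most among the called members, from -0.96 to -0.37, and Kdm5a and Kdm1a were -0.501 and -0.49. At an unadjusted p under 0.05, that fit had 21 members higher and 6 lower. S3 and S4 also had more spike-in than any Sirt6-KD library, so spike-in share and group cannot be told apart.

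Many chromatin enzymes are encoded by long genes, and long genes were higher in Sirt6-KD as a class. The median log2 level of the longest quartile of genes minus that of the shortest was lowest in S2 (-0.81) and S1 (-0.52), then S4 (-0.11) and S3 (0.13), and 0.40 to 0.54 in the Sirt6-KD libraries. From the shortest to the longest quartile of genes by span, the share called higher went from 2.91% to 17.5% and the share called lower from 19.5% to 3.02%. Of the 72 members tested with a known span, 26 were in the longest quartile and 8 in the shortest. In the longest quartile 6 of 26 members were called higher, including Kmt2a, Kat6a, Nsd1 and Ezh2, and the members' median log2 fold change was 0.32 beside 0.37 for all genes there. In the shortest quartile the members' median was -0.159 beside -0.318 for all genes (8 members). It was 0.24 beside -0.145 in the second quartile (12 members) and 0.135 beside 0.0348 in the third (26 members).

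After each library was corrected for gene span, edgeR called 6 of 72 members tested higher and 6 lower, beside 7.30% and 10.0% of all genes. Dot1l, Kat6a, Kdm3a, Kmt2a, Kmt5a and Nsd1 remained higher, and Kdm1a, Kdm5a and Setd4 remained lower. Ezh2 was then 0.46 on the log2 scale, under the fold threshold, and Kdm4c 0.21. Ezh1, Kdm6a and Crebbp, which have spans above the median and negative fold changes, were called lower, at -0.61, -0.91 and -0.84.

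When libraries were scaled by their spike-in reads, the median of all genes rose to 0.94 on the log2 scale, and edgeR called 0 members in either direction (38 higher and 0 lower at an unadjusted p under 0.05), at 0.151% of all genes higher and 0.0302% lower. Setd4, Kdm5a and Kdm1a were then positive, at 0.24, 0.37 and 0.397, though -0.702, -0.58 and -0.55 once that median was subtracted. After the same subtraction, Kmt2a, Kat6a and Ezh2 were 1.299, 1.05 and 0.72. The directions of the members called lower are thus relative to the other genes of the same library and not amounts per spike-in.

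**Figure D4:**
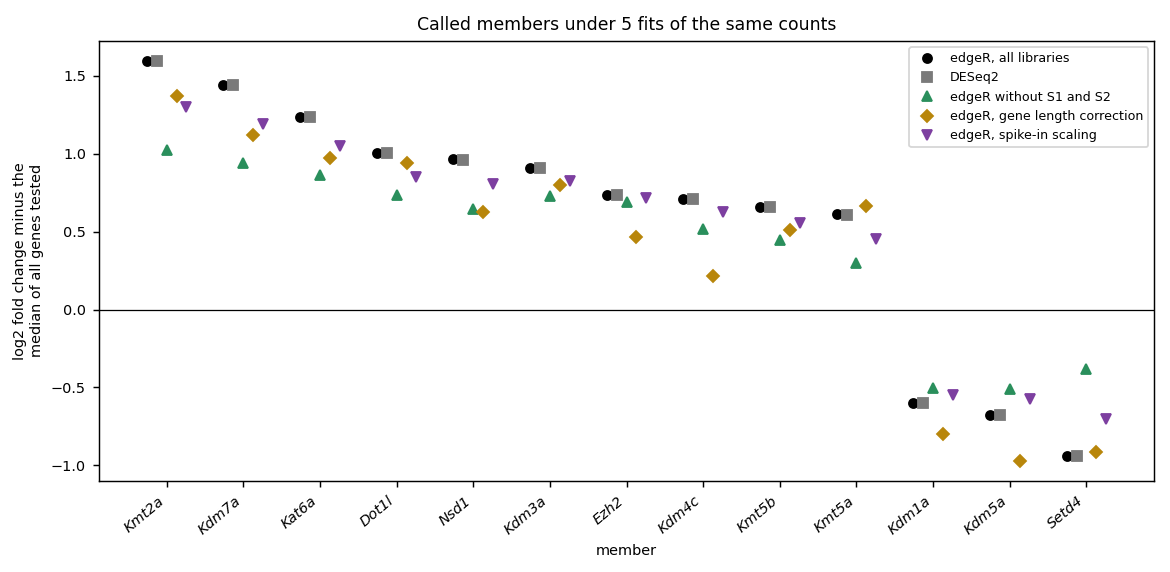
Log2 fold change of each called member minus the median of all genes tested, under 5 fits of the same counts. Every called member keeps its side of 0 in all 5, those called higher from 1.595 for Kmt2a with all libraries down to 0.21 for Kdm4c after the correction for gene length.

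**Figure D5:**
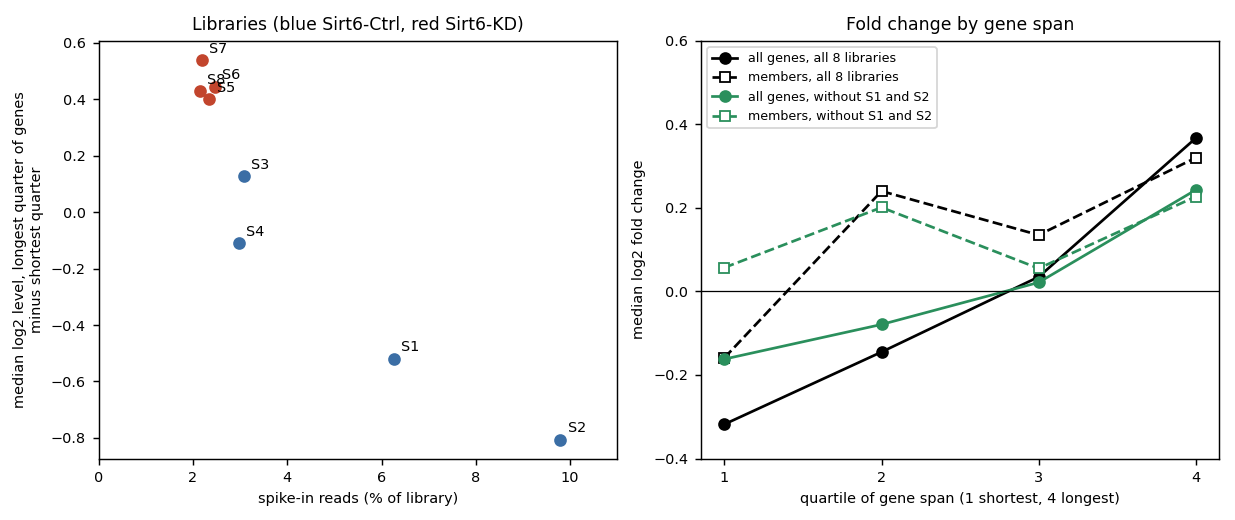
Left, spike-in reads as a percentage of each library against the median log2 level of the longest quartile of genes minus the shortest; S1 and S2 lie apart at 6.27% and 9.80%. Right, median log2 fold change by quartile of gene span for all genes and for the members, with all 8 libraries and without S1 and S2; the line of all genes runs from -0.32 to 0.37 and, without S1 and S2, from -0.16 to 0.24.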

How the data were processed

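RNA-seq counts of 8 libraries of primary rat NP cells were analysed, 4 Sirt6-Ctrl and 4 Sirt6-KD, grouped by the sample labels. Raw counts were deposited for 32975 rows, of which 92 were ERCC spike-ins and the others Ensembl genes. Per the labels' processing notes, Trimmomatic 0.36, STAR 2.5.2b, featureCounts of Subread 1.5.2, DESeq2 and the build Rnor_6.0 were used, and the strand setting is not given in the sources used here, so overlapping genes on opposite strands cannot be told apart. The authors also deposited a comparison table (13612 rows) that holds gene names, their own fold changes and p-values, which were not used, and a normalized signal per library (counts divided by a size factor), which was not used in tests.

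Counts were filtered with filterByExpr, normalized by TMM and tested with edgeR 4.0.16 in R 4.3.3 (quasi-likelihood test, two-sided, Benjamini-Hochberg over 13313 rows, 63 of them spike-ins). A call needed a fold change above 1.5 and an adjusted p below 0.05. Levels are TMM-normalized CPM, and errors of levels are SD over 4 libraries. The SE of a log2 FC was its size divided by the square root of the F statistic of the edgeR test, and was not estimated separately. Paralogue ratios were differences of log2 CPM with a prior count of 0.5 reads scaled to library size, compared by exact two-sided permutation tests. The independence of the libraries rests on the methods' statement of independent experiments. The level of 3 reads given per library covers counting error only, since reads carry no molecular identifiers. Alternatives used other normalizations, filters, tests (DESeq2 1.42.0, limma-voom 3.58.1, glmTreat) and thresholds, spike-in scaling, a loess correction (span 0.5) for gene span on RefSeq GRCr8 (matched by symbol for 86.0% of genes tested), each library left out, and S1 and S2 left out. The scripts were tested on simulated data. Promoters came from RefSeq GRCr8, where 60 of 73 member names matched.

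The members, roles, partner lists, paralogue pairs and alternatives were chosen with earlier results of these data known. The genes named are every called member and partner, a list of writers and erasers of the H3 marks assayed in the study, both genes of each pair, and Sirt6, except 1 member whose own values are not reported here; Kdm1b, Kdm5c, Kdm5d, Kmt5c, Hdac7 and Nsd2 were added after their values were seen, and all marker lists are reported. Marker and partner names without a row were not analysed here (9 of 102 partners).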

Additional observations from a re-analysis of the deposited data

Results flagged for a closer look

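For the named genes and the paralogue ratios, 134 groups of 4 libraries were examined for a library whose gap to its nearest neighbour took most of the range (Dixon's test), and 10 groups held one, where chance gives about 1 in 20, or 6.7. The values below are that gap as a share of the range. In Sirt6-Ctrl, S3 was the highest for Setd2 (0.867, at 154.8 CPM against 100.7 CPM for the next library), Kmt5b (0.868, 45.2 against 28.7 CPM), Kdm7a (0.899, 9.04 against 3.03 CPM) and Kdm4c (0.956, 34.4 against 21.5 CPM). In these 4 genes S3 lay on the side of the Sirt6-KD libraries. S2 was the lowest for Kmt2b (0.85, 24.4 against 41.7 CPM), and S4 the lowest for Kdm5b (0.854, 120.3 against 135 CPM). In Sirt6-KD, S8 was the lowest for Setd4 (0.833, 21.8 against 29.5 CPM). Among log2 ratios, S2 was the lowest for Ehmt1 to Ehmt2 (0.937, -2.85 against -1.76) and for Hdac4 to Hdac5 (0.914, -4.92 against -2.57), and S3 was the highest for Kdm2a to Kdm2b (0.972, 2.54 against 2.07). The 3 ratios with such a library were among the 4 whose groups overlapped.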

How the results depend on the processing

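No paired analysis was possible because no label or column ties a Sirt6-KD library to the Sirt6-Ctrl library of the same rat, and the replicate numbers follow accession order. DESeq2 size factors within edgeR, DESeq2 and limma-voom kept the counts of members called within 1.5 times, at 10 to 14 higher and 3 to 4 lower, against 10 and 3. The lower members were 5 with at least 1 CPM in 4 libraries and 5 with no minimum fold. With glmTreat, which tests against a fold of 1.5, members were 0 and 0 (6 higher and 1 lower at an unadjusted p under 0.05) and partners 1 and 0, against 11 and 6. Spike-in scaling gave 0 members and 0 partners in either direction. The gene length correction gave 6 members higher and 6 lower, and 5 partners higher. Leaving out S1 and S2 gave 5 and 0 members and 6 and 1 partners, with 2 fewer libraries. Partners called lower were 3 with upper quartile scaling, with library totals and with no filter. Beside the main fit, shares of all genes are given above only for spike-in scaling, the length correction and the fit without S1 and S2. None is given for counts at an unadjusted p.

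With 1 library left out, members called higher ranged from 4 (without S6) to 16 (without S3), and were 5 without S1, S5 or S7. Members called lower ranged from 0 (without S2) to 5 (without S4), and were 1 without S8. Partners ranged from 3 (without S6) to 18 (without S3) higher and from 1 to 5 lower. The share of all genes called in these fits is not given here. These counts alone thus do not tell whether members moved more than other genes. The cause of these moves was not tested. Depth limits Suv39h2, which was under the level of 3 reads in S2.

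The log2 fold change changed sign under spike-in scaling for Crebbp (0.71), Hdac1 (0.62), Hdac2 (0.83), Hdac3 (0.96), Ezh1 (0.43), Kdm6a (0.54), Kdm5a (0.37), Kdm5b (0.92), Kdm1a (0.40), Setd4 (0.24), Eed (0.44), Ing4 (0.35), Dmap1 (0.17), Mcrs1 (0.42), Suds3 (0.18), Phf8 (0.35), Kmt5c (0.31) and Nsd2 (0.92). With library totals it did so for Hdac3 (0.0079), Kdm5b (0.034) and Nsd2 (0.055). Nsd2, near 0 with all libraries, was also positive with upper quartile scaling (0.013), no filter (0.0129) and spike-in rows removed (0.00506), and ranged from -0.053 to 0.036 with 1 library left out (positive without S1 or S3). The length correction reversed Hdac3 (0.029), Kdm2a (-0.074), Kdm2b (-0.22) and Ehmt1 (-0.14). Leaving out S1 and S2 reversed Hdac3 (0.067) and Setdb1 (-0.064). With 1 library left out, Hdac3 ranged from -0.17 to 0.093 (positive without S2) and Kdm5b from -0.10 to 0.0099 (positive without S8). Of these, Ezh1 passed the p threshold with all libraries, and Kdm5a, Kdm1a, Setd4 and the 6 partners were called. The Ehmt1 to Ehmt2 ratio difference ranged from -0.35 (without S2) to 0.034 (without S3) and was positive also without S1 or S4, and that of Kdm2a to Kdm2b from -0.0111 (without S1) to 0.15 (without S3), negative also without S2, S4 or S7. Over the named genes and alternatives, 952 values kept direction and side of the threshold, 205 lost the call, 26 gained one and 34 changed sign. The 952 include genes that were not called and stayed so, while only called genes could lose a call. These totals therefore do not measure how stable the calls were.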
